A study of Homo sapiens with 6 samples.

Results

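SLC25 mitochondrial carriers were taken as every gene of the deposited table whose symbol is SLC25A followed by a number, which gave 48 of 19923 genes. RNA sequencing had been carried out on BT549, an established human breast cancer cell line labelled as mammary gland epithelial, in 3 libraries treated with ENL and 3 control libraries. The sources used here do not say what ENL stands for, at what dose and for how long it was given or what the control cells received, and no genetic change is labelled in either group. They also do not say whether replicate libraries stem from separate cultures, so every p-value measures the spread between these libraries, which may be technical. Library totals in the table ran from 74457932 to 85310759 units, of which about 4 were inferred to stand for 1 sequenced fragment. The epithelial markers EPCAM and CDH1 lay between 0 and 0.358 CPM, the usual unit of counts scaled to 1 common library size, in all 6 libraries, and the mesenchymal marker VIM lay between 5372 and 6289 CPM in ENL libraries, against 2481 to 3267 CPM in control libraries. Among the keratin genes of epithelial cells, KRT8 was higher (38.02 CPM in ENL and 15.77 CPM in control), KRT5 was lower (1.64 and 6.12 CPM), and KRT18 (23.95 and 26.27 CPM) and KRT19 (0.743 and 0.752 CPM) did not pass. The labelled epithelial origin was thus seen in some of its markers only. Of the hormone and growth factor receptor genes, PGR was at 0 in all 6 libraries, ESR1 averaged 0.696 CPM in ENL and 0.797 CPM in control, and ERBB2 was lower (64.45 and 78.38 CPM). The calls of KRT5 and ERBB2 were each lost on leaving out certain libraries (ENL library 1, 2 or 3 for KRT5, and ENL library 1 or control library 2 or 3 for ERBB2; adjusted p from 0.0663 to 0.103). The endothelial marker CDH5 and the adipocyte marker ADIPOQ were at 0 in all libraries, PECAM1 and PLIN1 lay under 0.8 CPM, and the endothelial gene VWF averaged 6.22 CPM in ENL and 6.48 CPM in control. Among leukocyte markers, PTPRC, CD3E and LYZ lay under 1.2 CPM, while CD14 averaged 1.71 CPM in ENL and 9.68 CPM in control.

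Proteins of this family sit mostly in the inner mitochondrial membrane and exchange nucleotides, phosphate, cofactors, carboxylates, amino acids and metals between the matrix and the cytosol. They are built from repeats of a common transmembrane module, are encoded in the nucleus, and are inserted into the membrane by the TIM22 complex after passing the outer membrane. The ADP/ATP carriers, also called adenine nucleotide translocases, export the ATP made by oxidative phosphorylation, and other members feed the malate-aspartate shuttle, fatty acid oxidation, haem synthesis and mitochondrial DNA precursors. A few members lie elsewhere, such as SLC25A46 in the outer membrane and SLC25A17 in peroxisomes.

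Of the 48 carrier genes, 43 had enough counts to be tested, and 7 of these were higher and 10 lower in ENL than in control cells. The largest rise was that of SLC25A33, a pyrimidine nucleotide carrier, and among members above 2 CPM in control the largest fall was that of SLC25A13, an aspartate/glutamate carrier. The 7 genes that rose were SLC25A33, SLC25A29, SLC25A27, SLC25A6, SLC25A28, SLC25A5 and SLC25A3. The 10 that fell were SLC25A18, SLC25A13, SLC25A46, SLC25A20, SLC25A44, SLC25A43, SLC25A14, SLC25A32, SLC25A23 and SLC25A4. A call means an adjusted p below 0.05 from edgeR's quasi-likelihood model of all tested genes. Calls were made for 39.5% of the tested carriers, against 38.4% of all 14086 genes tested. Rises took 16.3% of the carriers and 20% of all genes, and falls took 23.3% and 18.4%. The shares lay close to the background in both directions, so these counts mark nothing particular to the carriers. The same shares of all genes are the background for the counts of each substrate group and list below. A change of at least 1.5-fold was called for 11 carriers, and for 25.2% of all genes. Groups of libraries that did not overlap were found for 27 of the 43 carriers (62.8%), and for 54.0% of all genes. The median log2 fold change, ENL over control, was -0.16 for the carriers and -0.02 for all genes. In bulk RNA, fewer cells that express a gene and less of its RNA per cell cannot be told apart.

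**Figure D1:**
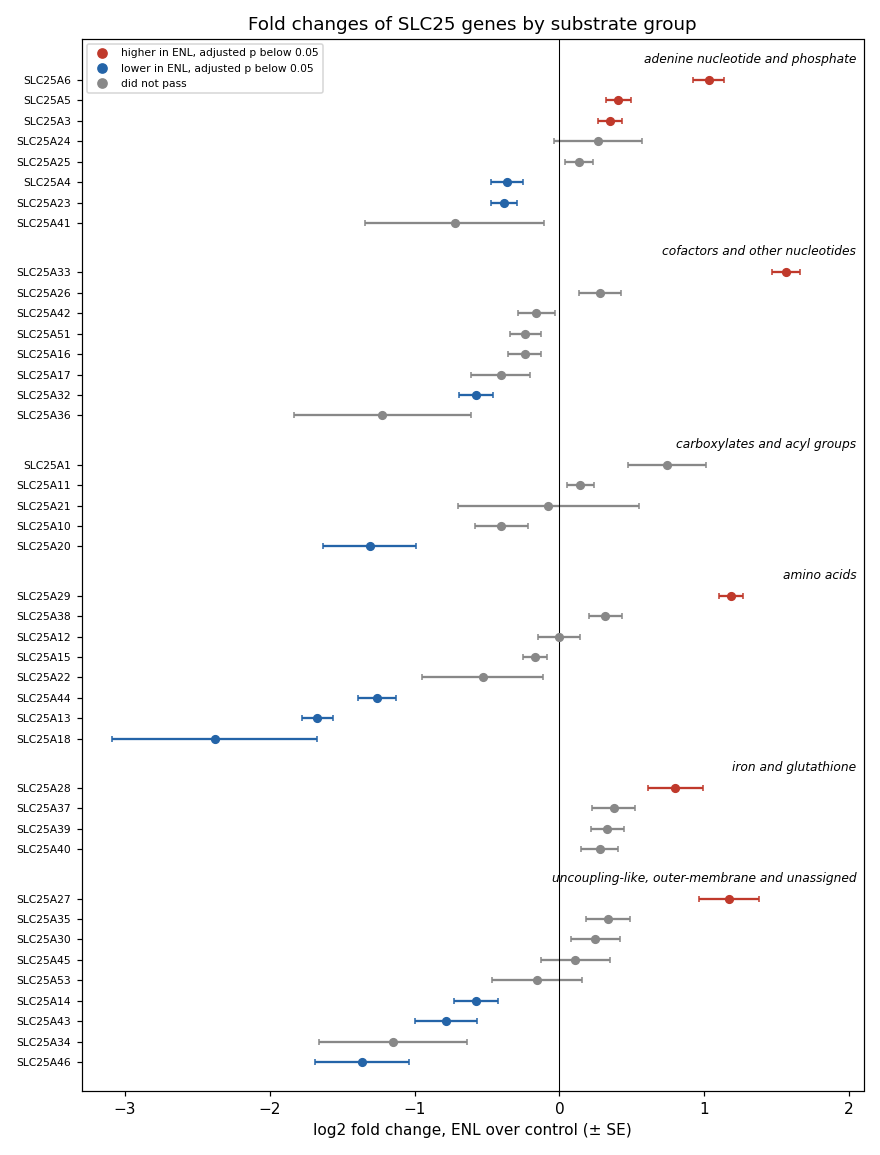
Log2 fold change of normalised counts, ENL over control, for 42 of the 43 tested SLC25 genes, sorted within substrate groups. Points are the fitted values, bars their standard errors, and colours mark the 7 genes higher in ENL, the 10 lower and the 25 drawn that did not pass. Rises and falls occur side by side in most groups, and the values run from -2.38 for SLC25A18 to 1.57 for SLC25A33.

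How firmly each call stood was read from 19 other settings of scaling, test, filter and library choice. SLC25A33, SLC25A29, SLC25A27, SLC25A6, SLC25A13, SLC25A44 and SLC25A32 were called in every setting that tested them. The other 10 lost the call in at least 1 setting, most often when a library was left out, and no called carrier changed sign in any setting. ENL library 3 lay away from ENL libraries 1 and 2, with a score of 55.8 on the second principal component of all genes, against -22 and -26.3. Without ENL library 3, 14 carriers were higher and 9 lower, and of all genes 3156 were higher and 2877 lower. Leaving out control library 1, 2 or 3 gave 5, 3 and 6 lower carriers, and 1807, 1840 and 1743 lower genes in all. With every library kept, 2819 of all genes were higher and 2585 lower, so the counts of all genes moved as well. Of the 7 genes called throughout, 6 have promoter entries in the reference, and these are printed here because their differences rest least on a choice of setting. The sequences are RefSeq entries of build GRCh38.p14, from 250 bases before to 50 bases after the start of transcription, 5′ to 3′ on the strand of the gene. Capitals mark matches on either strand to the motifs counted further on.
SLC25A33, higher in ENL, chr1:9539215-9539514, plus strand: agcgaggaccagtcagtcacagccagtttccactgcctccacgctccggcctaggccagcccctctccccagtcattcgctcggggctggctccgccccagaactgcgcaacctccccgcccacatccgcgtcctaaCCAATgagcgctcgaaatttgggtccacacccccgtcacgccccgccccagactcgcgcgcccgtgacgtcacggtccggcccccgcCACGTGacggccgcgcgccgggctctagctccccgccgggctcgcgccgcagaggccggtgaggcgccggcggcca
SLC25A29, higher in ENL, chr14:100306395-100306694, minus strand: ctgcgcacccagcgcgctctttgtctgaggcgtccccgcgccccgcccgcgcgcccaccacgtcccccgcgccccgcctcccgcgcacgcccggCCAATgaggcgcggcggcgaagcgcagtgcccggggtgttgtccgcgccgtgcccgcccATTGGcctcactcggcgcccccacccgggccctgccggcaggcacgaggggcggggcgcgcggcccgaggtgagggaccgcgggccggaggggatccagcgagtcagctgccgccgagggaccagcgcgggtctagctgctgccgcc
SLC25A27, higher in ENL, chr6:46652725-46653024, plus strand: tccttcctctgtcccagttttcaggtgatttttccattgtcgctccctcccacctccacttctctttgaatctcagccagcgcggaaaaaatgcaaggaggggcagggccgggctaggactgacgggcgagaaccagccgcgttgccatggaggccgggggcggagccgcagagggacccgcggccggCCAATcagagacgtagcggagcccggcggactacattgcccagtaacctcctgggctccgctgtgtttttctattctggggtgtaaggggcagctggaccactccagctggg
SLC25A6, higher in ENL, chrX:1392064-1392363, minus strand: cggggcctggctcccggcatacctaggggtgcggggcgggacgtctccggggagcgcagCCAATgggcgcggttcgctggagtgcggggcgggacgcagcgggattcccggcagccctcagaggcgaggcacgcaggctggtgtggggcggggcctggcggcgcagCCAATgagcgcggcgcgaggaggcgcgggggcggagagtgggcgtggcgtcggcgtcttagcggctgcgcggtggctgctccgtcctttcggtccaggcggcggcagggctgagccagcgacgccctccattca
SLC25A13, lower in ENL, chr7:96322049-96322348, minus strand: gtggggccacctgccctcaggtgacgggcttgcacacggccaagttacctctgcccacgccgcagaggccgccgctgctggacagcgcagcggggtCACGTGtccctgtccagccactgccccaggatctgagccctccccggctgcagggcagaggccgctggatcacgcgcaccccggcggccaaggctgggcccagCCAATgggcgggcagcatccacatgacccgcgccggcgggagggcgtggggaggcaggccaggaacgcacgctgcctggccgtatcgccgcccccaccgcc
SLC25A44, lower in ENL, chr1:156193854-156194153, plus strand: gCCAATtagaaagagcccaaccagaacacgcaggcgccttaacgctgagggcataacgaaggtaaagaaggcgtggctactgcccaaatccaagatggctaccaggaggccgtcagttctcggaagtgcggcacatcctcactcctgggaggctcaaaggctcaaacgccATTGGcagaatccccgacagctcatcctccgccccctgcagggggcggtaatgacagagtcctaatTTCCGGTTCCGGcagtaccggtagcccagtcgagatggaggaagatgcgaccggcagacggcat

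The adenine nucleotide and phosphate carriers, which serve oxidative phosphorylation, held the most abundant members, and their paralogues moved in opposite directions. Of 8 tested genes, 3 rose and 2 fell. SLC25A6, an ADP/ATP carrier (ANT3) of the pseudoautosomal region (chromosome X, 1386152 to 1392724, minus strand, GRCh38), had 1342, 1484 and 1166 CPM in ENL libraries 1, 2 and 3, against 626.5, 693.2 and 632.7 CPM in control libraries 1, 2 and 3. Every ENL library lay well above every control library, and the log2 fold change was 1.03 ± 0.11 (SE, n = 3 per group, adjusted p = 0.000655). SLC25A5, the ADP/ATP carrier ANT2 that predominates in proliferating cells (chromosome X, 119468400 to 119471319, plus strand), had 1113, 1130 and 970.9 CPM in ENL libraries and 792, 839.7 and 793 CPM in control libraries. The groups did not overlap, but the rise was smaller than that of SLC25A6, at a log2 fold change of 0.41 ± 0.09 (adjusted p = 0.0109). SLC25A4, the muscle and heart type ANT1 (chromosome 4, 185143241 to 185150382, plus strand), had 41.1, 35.7 and 33.7 CPM in ENL libraries, against 50.9, 47.9 and 43.3 CPM in control libraries. All ENL libraries lay below all control libraries, at a log2 fold change of -0.36 ± 0.11 (adjusted p = 0.0393). That call did not hold once length and GC content were corrected for (adjusted p = 0.206), nor without ENL library 2 or 3 (0.0977 and 0.0800), nor without control library 1, 2 or 3 (0.125, 0.107 and 0.0557). The testis type ANT4, SLC25A31, was not tested, with 5 units in ENL library 1 and 0 in the other 5 libraries.

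Within a library, the ratio of a pair of genes does not depend on how libraries are scaled. The counts of the 3 expressed ADP/ATP carriers were made up of 54.5% ± 1.3 SLC25A6 in ENL and 43.2% ± 0.656 in control (SD, n = 3 each), of 44% ± 1.13 and 53.7% ± 0.493 SLC25A5, and of 1.52% ± 0.153 and 3.15% ± 0.274 SLC25A4. SLC25A6 thus took the larger part in each ENL library and SLC25A5 in each control library, on the scale of counts without correction for length. The log2 ratio of SLC25A4 to SLC25A6 was -5.17 ± 0.18 in ENL and -3.78 ± 0.14 in control, a difference of -1.39. Per kilobase of transcript and over all 6 libraries, the mean level was 737.6 CPM for SLC25A5, 480.4 for SLC25A6 and 9.48 for SLC25A4. The coding sequences of the 3 genes are 77.2% to 78.7% identical, and the GENCODE 29 annotation holds 9 pseudogenes named after SLC25A5 and 6 named after SLC25A6. Reads of such copies could be divided between genes by the counting, which leaves the level of each single gene uncertain.

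SLC25A3, the phosphate carrier that supplies ATP synthase (chromosome 12, 98593591 to 98606379, plus strand), had 559.4, 548.6 and 555.5 CPM in ENL libraries and 438.3, 467.4 and 398.5 CPM in control libraries. The 3 ENL libraries were nearly equal and all above the control libraries, at a log2 fold change of 0.35 ± 0.08 (adjusted p = 0.0149). The call was lost when libraries were scaled by their totals alone (log2 fold change 0.15, adjusted p = 0.182), without control library 1 (0.0501) and without control library 3 (0.0625). Genes as abundant as SLC25A3 rose more often than others: at 295 CPM per kilobase or more, 131 of 206 genes (63.6%) were called higher. Without ribosomal protein and mitochondrially encoded genes, 61 of 121 (50.4%) were called higher, and their median log2 fold change was 0.38, close to the values of SLC25A3 and SLC25A5 and below that of SLC25A6. The part of gene level in these rises was not tested. Among the calcium-regulated ATP-Mg/phosphate carriers, SLC25A23 fell to 42.6 ± 3.22 CPM in ENL, against 55.6 ± 2.02 CPM in control (SD, n = 3 each). Its log2 fold change was -0.38 ± 0.09 (adjusted p = 0.0153), and the call was lost without control library 2 (0.0543) or 3 (0.0662). The related SLC25A25 and SLC25A24 had log2 fold changes of 0.14 ± 0.10 and 0.27 ± 0.30 and did not pass, and SLC25A41 stayed under 1 CPM in every library.

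**Figure D2:**
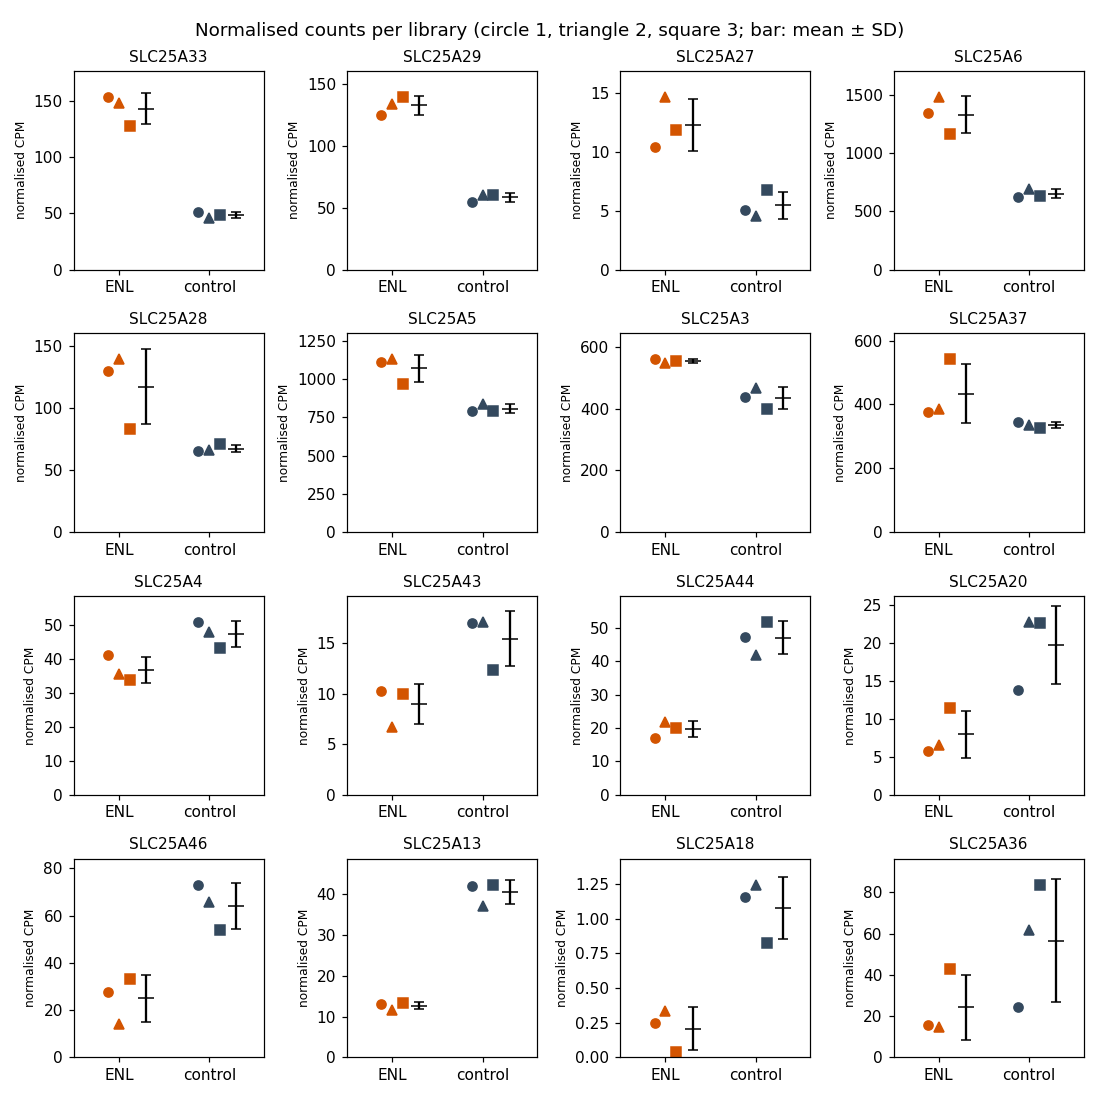
Normalised CPM in each library for 16 SLC25 genes, ENL left of control. Symbols stand for the library numbers (circle 1, triangle 2, square 3), and black bars give the mean ± SD of 3 libraries. Libraries of the groups are separate in all panels but SLC25A36, in which ENL library 3 at 42.6 CPM lies above control library 1 at 24.7 CPM.

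Carriers of cofactors and other nucleotides gave the largest rise of the family and 1 fall among 9 tested members. SLC25A33, which carries pyrimidine nucleotides into the matrix (chromosome 1, 9539482 to 9585179, plus strand), had 153.4, 147.6 and 127.5 CPM in ENL libraries, against 50.9, 45.7 and 48.2 CPM in control libraries. ENL libraries lay far above control libraries, which were close to each other, and the log2 fold change was 1.57 ± 0.10 (adjusted p = 8.61e-05). It stayed between 1.36 and 1.70 over all other settings. SLC25A36, the second pyrimidine nucleotide carrier, had 15.6, 14.6 and 42.6 CPM in ENL libraries and 24.7, 61.6 and 83.8 CPM in control libraries. Its libraries differed within both groups and overlapped between them, and its log2 fold change of -1.22 ± 0.61 did not pass (adjusted p = 0.168). The log2 ratio of SLC25A33 to SLC25A36 was 2.74 ± 1.0 in ENL and -0.06 ± 0.98 in control, with groups that did not overlap.

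SLC25A32, described as a carrier of folate or of FAD (chromosome 8, 103398635 to 103415189, minus strand), had 54.3, 45.3 and 44.9 CPM in ENL libraries and 79.9, 65.3 and 70.3 CPM in control libraries. It was lower in all ENL libraries, at a log2 fold change of -0.58 ± 0.12 (adjusted p = 0.00899). The gene shares 2547 exon bases with AC012213.5 on the same strand and 406 with DCAF13 on the opposite strand. Summed with AC012213.5, it kept the call at a log2 fold change of -0.58. The other 7 tested members did not pass. Among these, the peroxisomal SLC25A17 had a log2 fold change of -0.41 ± 0.20, the NAD carrier SLC25A51 one of -0.24 ± 0.11, and the S-adenosylmethionine carrier SLC25A26 one of 0.28 ± 0.14. SLC25A16 and SLC25A42, linked to coenzyme A, had -0.24 ± 0.12 and -0.16 ± 0.13. SLC25A51, SLC25A16 and SLC25A42 were called lower when libraries were scaled by totals alone, a scaling that moved the median of all genes to -0.23. SLC25A52, whose coding sequence is 94.5% identical to that of SLC25A51, had at most 15 units in a library and was not tested.

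Amino acid carriers held 1 rise and 3 falls among 8 tested genes, among them the largest falls of the family. SLC25A13 (citrin or AGC2), which exchanges aspartate for glutamate in the malate-aspartate shuttle (chromosome 7, 96120220 to 96322147, minus strand), had 13, 11.67 and 13.41 CPM in ENL libraries, against 41.94, 37.17 and 42.34 CPM in control libraries. The groups were far apart and each was narrow, at a log2 fold change of -1.67 ± 0.11 (adjusted p = 8.99e-05) and a range of -1.88 to -1.57 over the other settings. Its paralogue SLC25A12 (aralar or AGC1) had 18.79, 24.59 and 18.43 CPM in ENL libraries and 22.03, 20.99 and 18.99 CPM in control libraries. These groups overlapped, and the log2 fold change of -0.00 ± 0.14 did not pass (adjusted p = 0.983). The log2 ratio of SLC25A12 to SLC25A13 was 0.69 ± 0.34 in ENL and -0.97 ± 0.17 in control, so that counts of SLC25A12 exceeded those of SLC25A13 in each ENL library and fell short of them in each control library.

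SLC25A44, a carrier of branched-chain amino acids (chromosome 1, 156193932 to 156212796, plus strand), had 17.03, 21.81 and 20.06 CPM in ENL libraries and 47.32, 41.9 and 51.77 CPM in control libraries. It was lower in each ENL library, at a log2 fold change of -1.26 ± 0.13 (adjusted p = 0.000634). SLC25A29, which carries basic amino acids (chromosome 14, 100291111 to 100306547, minus strand), had 124.9, 134.1 and 139.9 CPM in ENL libraries, against 54.5, 60.6 and 60.5 CPM in control libraries. The rise was of similar size in every ENL library, at a log2 fold change of 1.18 ± 0.08 (adjusted p = 0.000142). SLC25A29 shares 693 exon bases with AL157871.1 on the opposite strand, which is not among the deposited genes. Whether reads of AL157871.1 were counted for SLC25A29 was not tested. SLC25A15, the ornithine carrier of the urea cycle, had a log2 fold change of -0.17 ± 0.08 that did not pass, and the ratio of SLC25A15 to SLC25A29 was lower in ENL by 1.35 on the log2 scale (-2.16 ± 0.06 in ENL and -0.81 ± 0.11 in control).

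The glutamate carriers were measured less firmly. SLC25A18, at low level, had 17, 23 and 3 units in ENL libraries and 101, 101 and 70 units in control libraries, or 0.249, 0.338 and 0.0361 CPM against 1.16, 1.25 and 0.824 CPM. All ENL libraries, each resting on a few fragments, lay below all control libraries, at a log2 fold change of -2.38 ± 0.71 (adjusted p = 0.0353). The call was lost without ENL library 1 (0.0745) and without control library 1, 2 or 3 (0.0964, 0.0952 and 0.0658). SLC25A22, the more abundant glutamate carrier, had 15.3, 50.29 and 42.02 CPM in ENL libraries and 52.39, 52.22 and 50.77 CPM in control libraries. ENL library 1 was far lower, ENL library 2 lay just under the lowest control library, and the log2 fold change of -0.53 ± 0.42 did not pass. SLC25A38, which carries glycine for haem synthesis, had 0.32 ± 0.12 and did not pass (adjusted p = 0.0685), but was called higher without ENL library 3 (adjusted p = 0.00638).

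**Figure D3:**
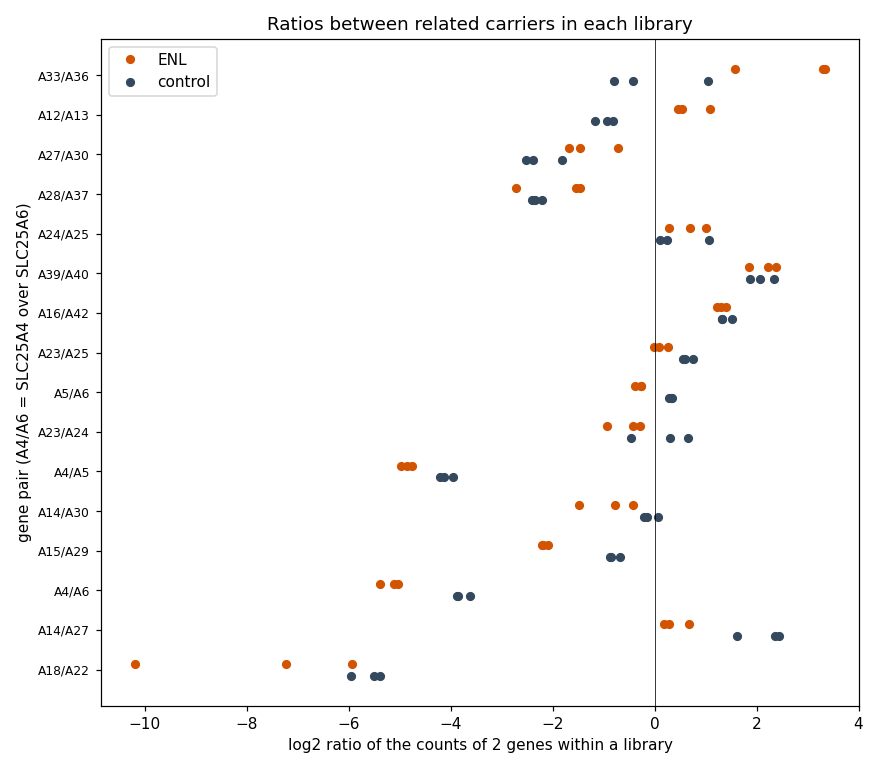
Log2 ratio of the counts of related carriers within each library, ENL above control in each row. Each point is 1 library, pairs with the rarely detected SLC25A41 are left out, and no correction for transcript length was made. ENL and control libraries are separate for SLC25A33/SLC25A36, SLC25A12/SLC25A13, SLC25A15/SLC25A29 and all 3 pairs of ADP/ATP carriers.

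Ratios were formed for 19 pairs of tested carriers with a shared class of substrate. In 10 of these pairs (52.6%) the ENL and control libraries did not overlap, against 51.7% of all pairs of tested genes above 0 in every library, so the count marks nothing particular to these pairs. Each of the 10 had p = 0.1 in a two-sided exact permutation test, which is the smallest value that 3 libraries against 3 allow (0.19 after adjustment over the 19 pairs). Such a design cannot reach the threshold. The remaining pairs overlapped, among them the glutathione carriers SLC25A39 and SLC25A40, with log2 ratios of 2.16 ± 0.27 in ENL and 2.09 ± 0.24 in control, and the coenzyme A pair SLC25A16 and SLC25A42, with 1.31 ± 0.09 and 1.38 ± 0.11.

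Carriers of carboxylates and acyl groups included 1 fall and no rise among 5 tested genes. SLC25A20, the carnitine/acylcarnitine carrier of fatty acid oxidation (chromosome 3, 48856931 to 48898993, minus strand), had 5.80, 6.58 and 11.4 CPM in ENL libraries and 13.7, 22.7 and 22.6 CPM in control libraries. The groups were separate but came close at ENL library 3 and control library 1, and the log2 fold change was -1.31 ± 0.32 (adjusted p = 0.0192). The call was lost without ENL library 1 (0.0532) or 2 (0.0669) and without control library 2 (0.0596) or 3 (0.0614). SLC25A1, the citrate carrier that exports citrate for lipid synthesis, had 143.2, 222.8 and 120.7 CPM in ENL libraries and 109.0, 73.5 and 108.0 CPM in control libraries. ENL libraries were all higher but far from each other, and the log2 fold change of 0.74 ± 0.27 did not pass (adjusted p = 0.0732). It was called higher by DESeq2's Wald test (adjusted p = 0.0107) and without ENL library 3 (0.0482). The oxoglutarate carrier SLC25A11, the other side of the malate-aspartate shuttle, had a log2 fold change of 0.14 ± 0.09, and the dicarboxylate carrier SLC25A10 one of -0.40 ± 0.19. Neither passed, and SLC25A21, a carrier of oxoadipate, was under 0.5 CPM in all libraries.

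All 4 carriers of iron and glutathione had positive log2 fold changes, as did 6847 of the 14086 genes tested. Of the 4, 1 passed (25%, against 38.4% of all genes). SLC25A28 (mitoferrin 2), an iron importer of non-erythroid cells (chromosome 10, 99610522 to 99620609, minus strand), had 129.7, 139.2 and 82.9 CPM in ENL libraries and 65.0, 66.1 and 70.8 CPM in control libraries. ENL libraries 1 and 2 lay far above the controls and ENL library 3 only slightly above them, at a log2 fold change of 0.80 ± 0.19 (adjusted p = 0.0163). The call was lost without ENL library 1 (0.0508) and without control library 1 (0.0581) or 2 (0.0547). SLC25A37 (mitoferrin 1), known as the iron importer of developing red cells (chromosome 8, 23528805 to 23575463, plus strand), had 376.5, 384.3 and 541.2 CPM in ENL libraries and 344.8, 335.1 and 324.8 CPM in control libraries. Here ENL library 3 was the highest, the reverse of SLC25A28, and the log2 fold change of 0.37 ± 0.15 did not pass (adjusted p = 0.0845). Without ENL library 3 it was 0.20 and passed (adjusted p = 0.0339), and with length and GC content corrected for it was 0.52 and passed (0.00947). SLC25A37 was the fourth most abundant carrier per kilobase, at 79.7 CPM over all libraries, just above SLC25A1 at 78.6 CPM. The erythroid markers HBA1, HBB and ALAS2 were at or under 0.95 CPM in every library. The glutathione carriers SLC25A39 and SLC25A40 had log2 fold changes of 0.33 ± 0.11 and 0.28 ± 0.13 and did not pass (adjusted p = 0.0568 and 0.136).

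In the remaining group of uncoupling-like, outer-membrane and unassigned carriers, 1 of 9 tested genes rose and 3 fell. SLC25A27, also called UCP4 (chromosome 6, 46652915 to 46678193, plus strand), had 10.4, 14.7 and 11.8 CPM in ENL libraries, against 5.03, 4.53 and 6.76 CPM in control libraries. It was higher in each ENL library, at a log2 fold change of 1.17 ± 0.21 (adjusted p = 0.00485). SLC25A14, also called UCP5, moved the other way, with 16.55, 17.91 and 13.47 CPM in ENL libraries and 27.26, 23.41 and 20.79 CPM in control libraries. It was lower in each ENL library, a log2 fold change of -0.58 ± 0.15 (adjusted p = 0.0246). That call was lost without ENL library 1 (0.0563) and without control library 1 (0.0849) or 2 (0.0623). SLC25A46, an outer-membrane protein that acts in mitochondrial dynamics (chromosome 5, 110738136 to 110765161, plus strand), had 27.75, 13.97 and 33.05 CPM in ENL libraries and 73.09, 65.73 and 53.69 CPM in control libraries. The groups were well separated, at a log2 fold change of -1.36 ± 0.32 (adjusted p = 0.0189), and the call was lost without control library 1 (0.0588) or 2 (0.0568). SLC25A43, without an agreed substrate (chromosome X, 119399060 to 119454478, plus strand), had 10.2, 6.72 and 9.96 CPM in ENL libraries and 16.9, 17.1 and 12.3 CPM in control libraries. ENL libraries were all lower, at a log2 fold change of -0.78 ± 0.21 (adjusted p = 0.0254). The call was lost without ENL library 2 (0.0505) and without control library 1 (0.0839) or 2 (0.0788). SLC25A30, SLC25A34, SLC25A35, SLC25A45 and SLC25A53 did not pass, with log2 fold changes from -1.15 ± 0.51 for SLC25A34 to 0.34 ± 0.15 for SLC25A35. SLC25A47 and SLC25A48, and SLC25A2 among the amino acid carriers, had too few counts to be tested, with at most 12 units in a library.

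**Figure D4:**
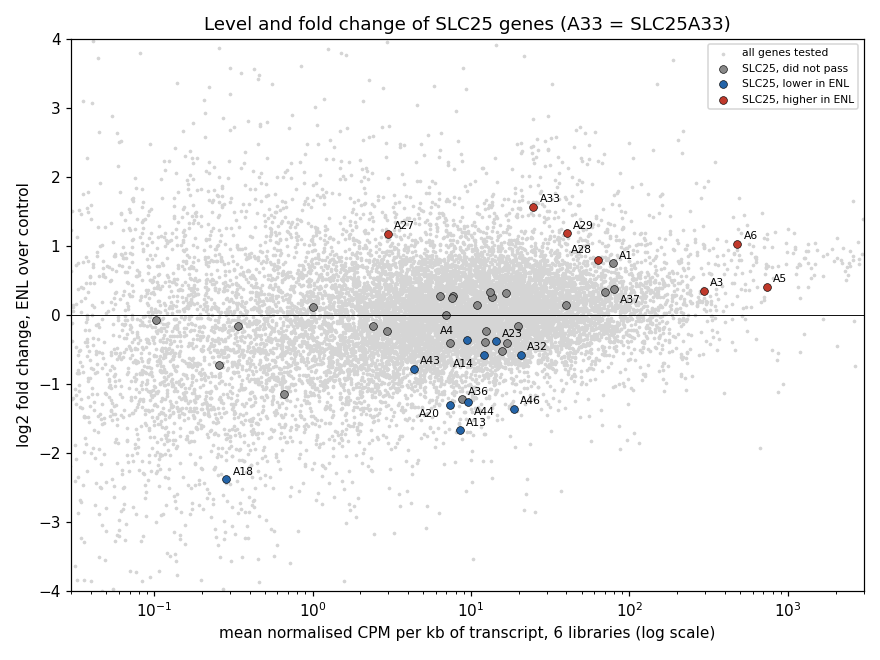
Mean normalised CPM per kilobase of transcript over 6 libraries (log scale) against log2 fold change, ENL over control, with the 43 tested SLC25 genes over all genes tested. SLC25A5, SLC25A6 and SLC25A3, the 3 most abundant members, were higher in ENL, and the falls of SLC25A13, SLC25A44, SLC25A20 and SLC25A46 lie between 7.35 and 18.7 CPM per kilobase. Genes beyond the log2 limits of the axis are not drawn.

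Taken over all 48 genes, carriers made up 0.452% ± 0.00721 of the counts of ENL libraries and 0.385% ± 0.00643 of those of control libraries (SD, n = 3 each). Every ENL library had the larger share, and SLC25A4, SLC25A5 and SLC25A6 together held 50.1% ± 2.76 of the carrier counts in ENL and 42% ± 0.681 in control. SLC25A6 alone took 27.3% ± 1.97 in ENL and 18.1% ± 0.513 in control. These shares are of the counts as deposited, without scaling factors, and the most abundant genes weigh most in them. The median log2 fold change of the tested carriers was -0.16, so the larger share does not stand for a rise across the family. Transcripts of the 7 carriers that rose had a median GC content of 49.5%, and those of the 10 that fell 48%. Their median lengths were 2062 and 2837 bases, while over all genes called higher and lower the medians were 2677 and 3509 bases. With length and GC content corrected for, 12 carriers were higher and 10 lower. In that setting the log2 fold change was 1.70 for SLC25A33 and -1.57 for SLC25A13.

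Promoter entries were found for 40 of the 48 carriers and were searched on both strands for 6 motifs of factors linked to nuclear genes for mitochondria. Those without an entry included SLC25A2, SLC25A16, SLC25A30, SLC25A32, SLC25A35, SLC25A37 and SLC25A41. The CCAAT box, CCAAT, was found in 19 of 40 carrier promoters (47.5%) and in 35.7% of the 27305 promoters of all genes. It was present for 6 of the 7 carriers that rose and for 4 of the 9 with an entry that fell. In the sequences printed above, it lies at 2 places in the windows of SLC25A6 and SLC25A29, which rose, and of SLC25A44, which fell. These places are 191 and 84 bases upstream for SLC25A6, 156 and 97 for SLC25A29, and 249 and 80 for SLC25A44. The E-box CACGTG was found in 7 carrier promoters (17.5%, against 7.43% of all), among them SLC25A33, 26 bases upstream, and SLC25A13, 154 bases upstream, which moved in opposite directions. The ETS core CCGGAA was found in 12 (30%, against 17.6%), including 1 of 7 that rose and 5 of 9 that fell, and the SLC25A44 window holds it 14 and 8 bases upstream. The half-site CATGCGC of NRF1 was in 0 of 40 (4.67% of all), and the ERR half-site AAGGTCA and the ATF4 composite site TGATGNAA were each in 1 (SLC25A34 and SLC25A11, 3.97% and 3.67% of all). None of the marked matches of different motifs overlap in the printed windows. The 27305 promoters of all genes include genes outside the 19923 of the deposited table and were not limited to tested genes. They are thus not a matched background for the carriers. Motif shares among all genes called higher or lower were not computed, so the counts by direction have no background beside them. These are matches of letters, and whether any factor binds there was not measured.

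Proteins of the same family that carry other symbols were counted beside the members. UCP2, an uncoupling protein, rose to 44.9 ± 7.51 CPM in ENL, against 25.3 ± 2.35 CPM in control (log2 fold change 0.83 ± 0.15, adjusted p = 0.00496), while UCP3 fell to 0.237 ± 0.0235 CPM, against 1.58 ± 0.369 CPM (-2.73 ± 0.34, adjusted p = 0.0012). The log2 fold change was 0.37 ± 0.07 for MTCH1, a mitochondrial outer-membrane protein, and -0.26 ± 0.08 for its relative MTCH2. Both passed, but MTCH1 lost its call under scaling by totals (adjusted p = 0.122) and against a 1.2-fold change (0.0937). MTCH2 lost its call whichever library was left out, with DESeq2 size factors, DESeq2's Wald test or no filter, without ribosomal protein and mitochondrially encoded genes, with length and GC content corrected for, and against a 1.2-fold change (adjusted p from 0.0526 to 0.46). Of the 5 genes, UCP1 was not tested.

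Genes of carrier import, which bring these proteins across the outer membrane and into the inner one, included 5 that rose and 1 that fell among 16, at a median log2 fold change of 0.26. Over all genes tested, 20% rose and 18.4% fell. The small chaperone gene TIMM9 had a log2 fold change of 0.87 ± 0.16, TIMM10B one of 0.76 ± 0.14 and the TOM complex gene TOMM7 one of 0.60 ± 0.14. AGK, a subunit of the TIM22 complex, fell to 16.2 ± 4.34 CPM in ENL, against 29.9 ± 0.89 CPM in control (-0.89 ± 0.19, adjusted p = 0.011).

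Mitochondrial transporters outside the family included 4 that rose and 6 that fell among 22, at a median of -0.07. Together 45.5% of them were called, against 38.4% of all genes tested, a difference that was not tested. The sideroflexin genes SFXN2 and SFXN1 fell, with log2 fold changes of -1.93 ± 0.26 and -0.59 ± 0.09, as did the outer-membrane channel gene VDAC3 with -0.49 ± 0.07. The calcium uniporter gene MCU rose by 0.75 ± 0.09 on the log2 scale and its regulator gene SMDT1 by 0.64 ± 0.15. The call of SMDT1 was lost without control library 3 (adjusted p = 0.0559), and that of MICU3, another uniporter regulator (0.52 ± 0.16), on leaving out any library except ENL library 2, under upper-quartile scaling or scaling by totals, and against a 1.2-fold change (0.0595 to 0.185).

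Enzymes that use or supply what the carriers move included 5 that rose and 7 that fell among 28 tested, at a median of -0.06. Together 42.9% of them were called, against 38.4% of all genes tested, a difference that was not tested. The cytosolic aminotransferase gene GOT1 of the malate-aspartate shuttle rose to 164 ± 3.36 CPM in ENL, against 98.0 ± 4.71 CPM in control, whereas its mitochondrial partner GOT2 fell to 106 ± 2.67 CPM, against 163 ± 4.07 CPM. Their log2 fold changes were 0.74 ± 0.07 (adjusted p = 0.000469) and -0.63 ± 0.07 (adjusted p = 0.000716). ALAS1, which starts haem synthesis from glycine, had a log2 fold change of -0.80 ± 0.07 and OGDH, an enzyme of the citric acid cycle, one of -0.75 ± 0.08. GPX4, a glutathione peroxidase gene, and GLUD1, a glutamate dehydrogenase gene, rose by 0.81 ± 0.13 and 0.39 ± 0.08 on the log2 scale, and the call of GLUD1 was lost under scaling by totals (adjusted p = 0.161) and against a 1.2-fold change (0.0814). MDH1, another gene of that list, was not analysed here.

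Among 14 regulators of mitochondrial genes, 3 rose and 3 fell, with a median of -0.10. Together 42.9% of them were called, against 38.4% of all genes tested, a difference that was not tested. ATF4, a stress-response factor, averaged 1373 ± 112 CPM in ENL and 582 ± 32.8 CPM in control, a log2 fold change of 1.24 ± 0.09 (adjusted p = 0.000178). The coactivator gene PPARGC1A averaged 3.49 ± 1.96 CPM in ENL and 0.526 ± 0.228 CPM in control (log2 fold change 2.73 ± 0.60), whereas for its relative PPARGC1B the log2 fold change was -0.74 ± 0.12. POLRMT, the mitochondrial RNA polymerase gene, rose by 0.40 ± 0.11 on the log2 scale, a call lost without ENL library 1 or 2, without control library 1 or 3, under upper-quartile scaling and against a 1.2-fold change (adjusted p from 0.0576 to 0.125). Under scaling by totals its log2 fold change was 0.19 and did not pass (0.146). TFAM and TFB2M, which act in mitochondrial transcription, fell by 0.39 and 0.43 on the log2 scale. Both lost the call without ENL library 2 or 3 and without control library 1 or 3, and TFAM also without control library 2 and with length and GC content corrected for (adjusted p from 0.0614 to 0.13). Against a 1.2-fold change neither passed (0.171 for TFAM and 0.117 for TFB2M).

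**Figure D5:**
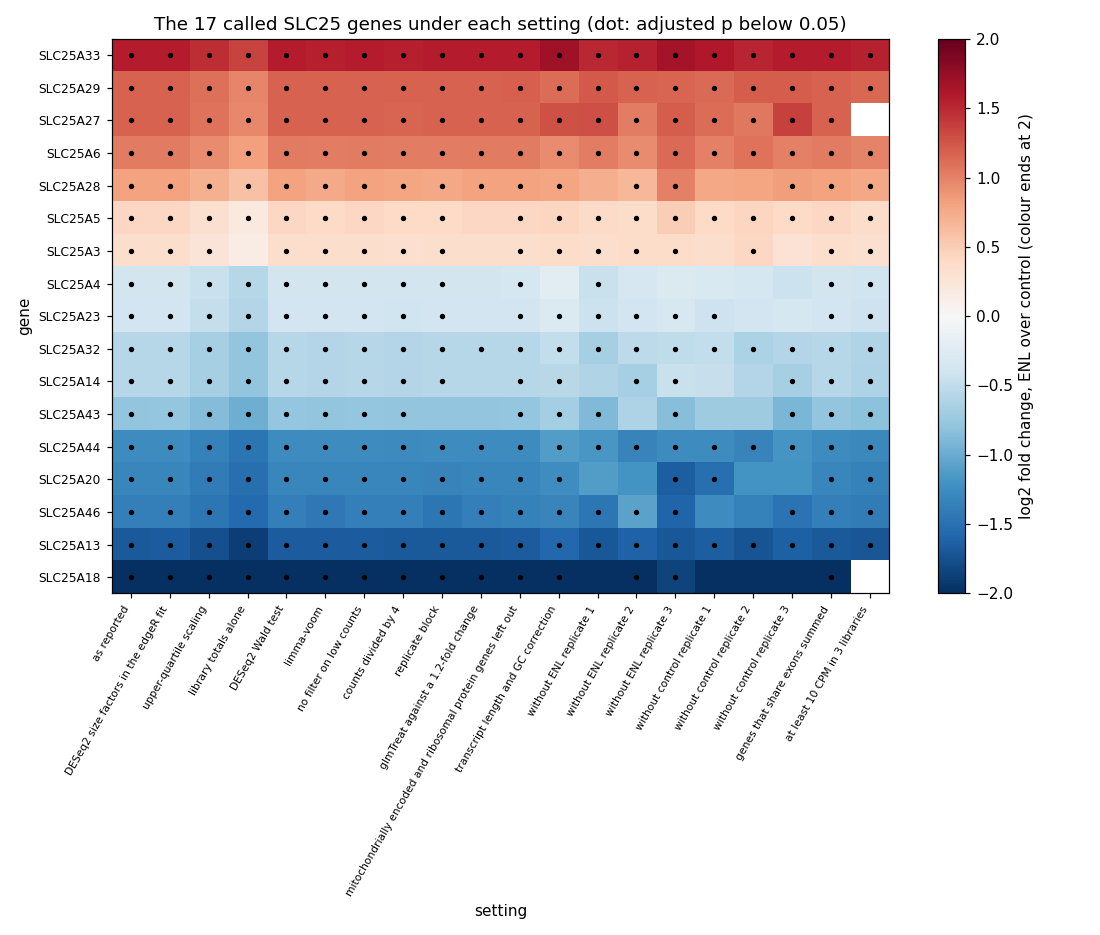
Log2 fold change, ENL over control, of the 17 called SLC25 genes (rows) as reported and under 19 other settings (columns). Colour gives the value, a dot marks an adjusted p below 0.05, and blank cells were not tested under that setting. No row changes colour from red to blue, and 7 rows carry a dot in every cell that was tested.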

How the data were processed

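The authors deposited 1 table of estimated counts, 1 value per gene and library, and build hg38 with the tools DESeq2, FastQC, STAR and StringTie, without versions or roles, is named in the submitters' processing notes. The annotation and the use of strand were not given in the sources available. The deposited values are whole numbers, so nothing was rounded, and 70.8% to 73.1% of values from 4 to 43 lay at multiples of 4 or 1 above. Of every 4 whole numbers in a row, 1 is such a multiple and 1 lies 1 above it, so many values would lie there anyway. About 4 units per fragment was inferred from the excess.

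Genes passing edgeR's filterByExpr (minimum count 10) were scaled by TMM and tested with glmQLFit (robust) and glmQLFTest, ENL over control, group alone, two-sided, with Benjamini-Hochberg adjustment over 14086 genes and a threshold of 0.05. Standard errors are the log2 fold change divided by the square root of F. CPM values use the same factors. R 4.3.3, edgeR 4.0.16, limma 3.58.1, DESeq2 1.42.0 and mgcv 1.9.3 were used. The procedure was also run on simulated data in which far fewer genes changed than were called here. That run does not test how the scaling acts when many genes change. Gene positions are those of GENCODE 29 (GRCh38), and lengths and GC content those of its longest principal transcript, matched by symbol for 99.4% of genes. Chi-square per degree of freedom between replicates was at least 19.4, so all libraries were counted.

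Members and lists were chosen with earlier results of these data known. Some of their genes are counted but not reported by name here. Values in every library are given for called members with a change of at least 1.5-fold, the 4 most abundant per kilobase, and paralogues called in opposite directions. SLC25A1, SLC25A12, SLC25A22, SLC25A32 and SLC25A36 were added after their values were seen. Of each other list, up to 3 called genes per direction are named, by adjusted p.

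Alternatives were DESeq2 size factors, upper-quartile scaling, library totals, DESeq2's Wald test, limma-voom, no filter, at least 10 CPM in 3 libraries, counts divided by 4, a replicate block, glmTreat against 1.2-fold, ribosomal protein and mitochondrially encoded genes left out, a length and GC correction, each library left out, and, added after seeing the data, overlapping genes on the same strand summed.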

Additional observations from a re-analysis of the deposited data

How the results depend on the processing

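Beside the 7 higher and 10 lower carriers reported, DESeq2 size factors, upper-quartile scaling, DESeq2's Wald test, limma-voom, the low-count filters, counts divided by 4, omission of ribosomal protein and mitochondrially encoded genes, and summed overlapping genes kept both counts within 1.5 times. Scaling by library totals gave 16 lower carriers, and 1804 higher and 3996 lower genes in all, with a median log2 fold change of all genes of -0.23. The correction for transcript length and GC content gave 12 higher carriers, and 3707 higher genes in all. The glmTreat test against a 1.2-fold change gave 6 lower carriers and 1713 lower genes in all; it asks for a larger change, so fewer calls follow from its construction. The causes of the other shifts were not tested. With each library left out in turn, the higher carriers numbered 5 to 14 and the lower carriers 3 to 9, and all higher genes 2072 to 3156 and all lower genes 1743 to 2877. Against 1.2-fold, SLC25A5 lost its call, in no other setting (adjusted p = 0.0775), as did SLC25A3, SLC25A4, SLC25A14, SLC25A23 and SLC25A43 (0.0532 to 0.193). No called value changed sign.

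Scaling by the upper quartile gave 2356 higher and 3136 lower genes and the length and GC correction 3707 and 2551, against 2819 and 2585 as reported. With the replicate number as a block, 7 carriers were higher and 11 lower, and 2631 genes were higher and 2310 lower in all; SLC25A43 lost its call (adjusted p = 0.0563) and SLC25A10 was among those that gained one, and among other genes named, MICU3 (0.0583) and PPARGC1A (2.63 on the log2 scale, 0.0579) lost theirs. The deviations of same-numbered libraries from their group means correlated at 0.0300, 0.0456 and 0.0797 over genes. ENL libraries 2 and 3 each correlated best with the control library of the same number, and ENL library 1 with control library 2 (0.0322). These values do not settle whether the numbers pair the libraries, and the reported fit used no pairing. Depth limits the carriers under about 1 CPM, such as SLC25A18 in ENL libraries with 3 to 23 units, and 5 carriers were too low to test.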
